A study of Mus musculus with 9 samples.

Results

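Lungs of mice given an adenovirus that carries either form of interleukin-4 were set against lungs of mice given the same kind of virus without a cytokine gene. The forms are mouse IL-4 and mouse IL-4d2, a splice variant of it. All 9 arrays of the series entered: 3 mice given AdV-IL4 and 3 given AdV-IL4d2 formed 1 arm of 6, and 3 mice given AdV-NULL formed the control arm. Every mouse was a female C57BL/6 mouse aged 14 weeks, and every lung was taken on day 14 after intratracheal infection with a replication-deficient virus. The controls were therefore infected as well, and no uninfected lung was among the 9. Genes of interest were those on which the 2 cytokine forms share a side, that is, where all 6 cytokine arrays lay above, or all 6 below, the 3 control arrays. Of 45037 probe sets (the short probe groups that each report a transcript), 3282 met that rule, 1636 above and 1646 below.

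Interleukin-4 is a cytokine of type 2 immunity. It binds a receptor whose alpha chain is encoded by Il4ra, and the receptor's Janus kinases activate the transcription factor STAT6. In the lung it is known for turning macrophages to an alternatively activated state, for mucus production, and for helping B cells grow and switch antibody class. Heat shock proteins, which recur in the results, are chaperones that keep other proteins folded, and immediate early genes are transcription factors and regulators that cells switch on within minutes of a stimulus.

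Signals are the deposited microarray intensities on a linear scale. Differences are given as log2 of (signal + 16), the 6 cytokine arrays minus the 3 control arrays, with the standard error of the fit, so 1 unit is a doubling and dim probe sets are understated. A gene was called where limma's moderated test gave a Benjamini-Hochberg adjusted p under 0.05 over all 45037 probe sets. The test called 452 probe sets. Of all those tested, 310 rose (0.688%) and 142 fell (0.315%), so 68.6% of the calls were increases. All 452 lay on one side of the controls, and so did 7.29% of all probe sets (3.63% above and 3.65% below). Only 144 of the 452 moved at least 2-fold, 121 up and 23 down. With 1 probe set for each of 18193 genes, 237 genes were called (1.30%): 155 rose (0.852%) and 82 fell (0.451%). All 6 cytokine lungs lay above the controls for 4.39% of genes and below them for 4.83%. The counts of each gene list below are to be read beside these shares. The median difference of all genes was 0.00.

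The calls depended on which arrays entered. Leaving out 1 array at a time left between 122 and 308 probe sets called higher and between 41 and 157 called lower. Of the 237 genes, 57 kept their call in all 9 such fits, 51 higher and 6 lower. Of the 9 lungs, 1 stood apart on markers of another tissue and 1 on those of an airway cell type. The mean log2 signal of 15 skeletal muscle genes was 11.95 in control mouse 1 and 6.38 to 8.86 in the others, and that of 19 ciliated cell genes was 9.23 in AdV-IL4 mouse 2 and 9.85 to 10.43 in the others. Without both of these arrays 92 probe sets were called higher and 27 lower, and 55 of the 237 genes stayed called. Scaling the arrays to their bacterial poly-A control transcripts, which were brighter on the AdV-IL4 than on the AdV-IL4d2 arrays, moved the median of all probe sets by -0.22, left 39 calls higher and 54 lower, and put increases at 41.9% of the calls. Scaling to the hybridisation controls moved the median by -0.15, with 60 calls higher and 20 lower. The ratio of 3' to 5' Gapdh probe sets, which rises as RNA degrades, was 1.28 ± 0.284 (SD, n = 3) in controls and 1.59 ± 0.177 (SD, n = 6) with cytokine, and the exact two-sided permutation p was 0.119 where 0.0238 is the smallest possible. By form, all 3 AdV-IL4 arrays (1.54 to 1.80) lay above all 3 controls (0.955 to 1.45) in the Gapdh ratio, while the AdV-IL4d2 arrays (1.35 to 1.57) overlapped both. The same ratio for Actb was 2.65 ± 0.324 (SD, n = 3) in controls and 2.91 ± 0.491 (SD, n = 6) with cytokine (exact two-sided permutation p = 0.548). In that ratio the AdV-IL4 (2.79 to 3.75) and AdV-IL4d2 arrays (2.34 to 2.79) both overlapped the controls (2.28 to 2.88). The part of RNA quality in the results was not tested. These lungs were measured whole, so more cells of a type and more RNA per cell cannot be told apart.

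The labels were checked first through Il4 itself. Its signal was 43.1, 15.8 and 71.6 in the 3 control lungs. It was 379, 301 and 335 with AdV-IL4 and 1172, 944 and 499 with AdV-IL4d2. All 6 cytokine lungs were thus above every control, and Il4 rose by 3.31 ± 0.43 (limma adjusted p = 0.00295). The signal was lower with IL-4 than with IL-4d2 by an estimated 1.25, with a 95% interval of the difference (IL-4 minus IL-4d2) from -2.04 to -0.45, which was not called (limma adjusted p = 0.185). Where on the transcript the probes lie, and so which form each reports, was not examined. The genes that carry the signal onward were not called: Il4ra differed by 0.21 ± 0.11 (limma adjusted p = 0.465) and Stat6 by 0.15 ± 0.07 (limma adjusted p = 0.374), and scaling to the poly-A controls turned them to -0.04 and -0.11. Scaling to the hybridisation controls put Stat6 at -0.03. On the deposited scale Stat6 nevertheless had all 6 cytokine signals (2146 to 2419) above the 3 controls (1971 to 2109), as did its second probe set, at 0.35 (limma adjusted p = 0.163).

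Of 19 measured genes of the IL-4 receptor and JAK-STAT6 pathway, 2 rose, none fell and 3 had all 6 cytokine lungs above the controls. Of all genes, 0.852% rose and 4.39% lay above. Both list counts include Il4, which the cytokine viruses carry, so for that gene they are no response of the pathway. The list median was 0.15 against 0.00 for all genes. The riser beside Il4 was Batf, a transcription factor of activated lymphocytes, by 0.89 ± 0.18 (limma adjusted p = 0.0406). Its call was lost in 6 of the 9 fits without 1 array, those without AdV-IL4 mouse 1 (0.85), 2 (0.87) or 3 (0.82), AdV-IL4d2 mouse 1 (0.91), or control mouse 1 (0.79) or 3 (0.78).

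Among the 41 gene lists the heat shock genes formed the most complete shared group. The lists were chosen with earlier results of these data known, so this rank describes the data and is no independent test. Of 13 measured members, 12 rose, against 0.852% of all genes, and none fell. All 13 had every cytokine lung above every control, against 4.39% of all genes. The list median was 0.95. The mean log2 signal of the 13 genes was between 11.25 and 11.37 in the control lungs and between 12.45 and 13.09 in the cytokine lungs, so the arms did not overlap. Other lists also kept the arms apart, among them B cell, T cell, complement and MHC class I genes. The IL-4 receptor list read 8.87 to 9.01 in controls and 9.14 to 9.41 with cytokine. That list includes Il4 itself, which both cytokine viruses carry, so its gap cannot be read as a response of the pathway. Resident alveolar macrophage markers lay lower with cytokine (9.65 to 9.99 and 9.23 to 9.57). Within the heat shock list the largest changes were in the inducible HSP70 genes. Hspa1b read 2159, 2015 and 2320 in controls. With cytokine it read from 11090 through a median of 17582 to 30936, and it rose by 3.01 ± 0.26, which is 8.06-fold (limma adjusted p = 9.92e-05). Hspa1a, its near-identical neighbour, whose probes cannot be assumed to tell the pair apart, read 532, 456 and 521 in controls and 2341 to 6643 with cytokine, and rose by 2.83 ± 0.26 (limma adjusted p = 0.0002).

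**Figure D1:**
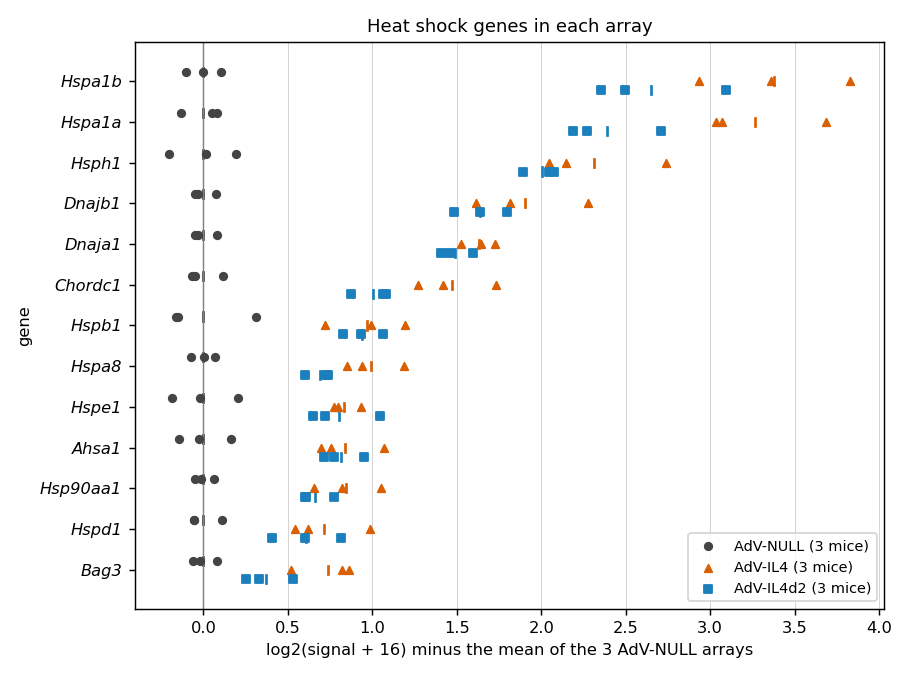
Heat shock genes by array: the x axis is log2(signal + 16) minus the mean of the 3 AdV-NULL arrays, each point is 1 mouse, and the short vertical line is the group mean of 3. All 6 cytokine lungs lie to the right of all 3 controls for each of the 13 genes, with Hspa1b (3.01) and Hspa1a (2.83) farthest out.

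The partners of these chaperones moved with them. Hsph1 encodes HSP110, which exchanges the nucleotide of HSP70. It read 1654, 1253 and 1460 in controls and between 5416 and 9744 with cytokine (median 6090), and rose by 2.16 ± 0.16 (limma adjusted p = 2.64e-05). Dnajb1 and Dnaja1 encode J-domain proteins that hand clients to HSP70. Dnajb1 read 1249, 1233 and 1344 in controls and 3592 to 6245 with cytokine, a rise of 1.77 ± 0.14 (limma adjusted p = 5.12e-05). Dnaja1 rose by 1.56 ± 0.09 (limma adjusted p = 1.24e-05) and showed little spread: its controls read 3284, 3321 and 3598, and its 6 cytokine lungs ran from 9039 to 11287. The co-chaperones Chordc1 and Ahsa1, both partners of HSP90, rose by 1.24 ± 0.15 and 0.82 ± 0.10. The small heat shock protein gene Hspb1 and the mitochondrial chaperonin gene Hspe1 rose by 0.95 ± 0.12 and 0.82 ± 0.10. All 9 genes named so far in this group kept their call in each fit without 1 array.

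The calls of 3 further members were lost without single controls. Hspa8, the constitutive HSP70, rose by 0.84 ± 0.13 and Hsp90aa1 by 0.75 ± 0.12, and both calls were lost without control mouse 1 (0.80 and 0.74) or control mouse 3 (0.87 and 0.78). Hspd1, the partner of Hspe1, rose by 0.66 ± 0.11, and its call was lost without control mouse 1 (0.72), 2 (0.63) or 3 (0.63). Bag3 was the member not called, at 0.55 ± 0.13 (limma adjusted p = 0.0711), although its 6 cytokine signals of 1381 to 2111 all exceeded the control signals of 1105 to 1222. None of the 13 genes had a called difference between the forms. The widest gap was in Hspa1a, 0.88 higher with IL-4 (95% interval 0.50 to 1.26, limma adjusted p = 0.0536).

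Chaperones of the endoplasmic reticulum, which fold proteins bound for secretion, also rose in part. Of 18 measured genes 6 rose, none fell and 9 had all 6 cytokine lungs above the controls, with a list median of 0.28. Of all genes, 0.852% rose and 4.39% lay above. Hspa5 encodes BiP, the HSP70 of this compartment. It read 8365, 10703 and 8179 in controls and from 13769 to 16366 with cytokine, and rose by 0.76 ± 0.11 (limma adjusted p = 0.00462). Manf rose by 0.86 ± 0.10, Creld2 by 0.85 ± 0.11 and Sdf2l1 by 0.94 ± 0.13, and like Hspa5 all 3 kept their call in every fit without 1 array. A dimmer probe set of Hspa5 disagreed, at 0.06 (limma adjusted p = 0.898), while another gave 0.84. Pdia4, a disulfide isomerase, rose by 0.63 ± 0.12 and lost its call without AdV-IL4 mouse 3 (0.61) or control mouse 1 (0.57) or 3 (0.62). Pdia6 rose by 0.52 ± 0.10, and its call survived only without AdV-IL4d2 mouse 1 or mouse 3, with a range of 0.42 to 0.58 over the 9 fits.

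A decrease with little spread within the groups was in Cirbp, which encodes a cold-inducible RNA-binding protein. It read 1220, 1288 and 1236 in controls, 356, 335 and 377 with AdV-IL4, and 439, 429 and 448 with AdV-IL4d2. The arms were far apart beside the spread within each. Cirbp fell by 1.62 on the log2 scale (SE 0.11, 3.07-fold, limma adjusted p = 2.15e-05), and ranged from -1.65 to -1.57 without 1 array.

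Part of the immediate early genes fell as well. Of 22 measured, 7 fell, against 0.451% of all genes, and none rose. For 10 of the 22 all 6 cytokine lungs lay below the controls, against 4.83% of all genes. The list median was -0.68, and the list's mean log2 signal was 10.40 to 10.97 in controls and 9.84 to 10.44 with cytokine, so control mouse 1 overlapped the cytokine lungs. Nr4a1, an orphan nuclear receptor, read 2198, 3313 and 4228 in controls and between 824 and 1078 with cytokine (median 882). It fell by 1.78 (SE 0.16, limma adjusted p = 0.000177). Ier2 fell by 0.98 (SE 0.11, limma adjusted p = 0.000698), from control signals of 2459, 2951 and 3095 to cytokine signals of 1177 to 1596. Btg2, an inhibitor of proliferation, fell by 0.78 (SE 0.10, limma adjusted p = 0.00352). These 3 kept their call in every fit without 1 array.

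**Figure D2:**
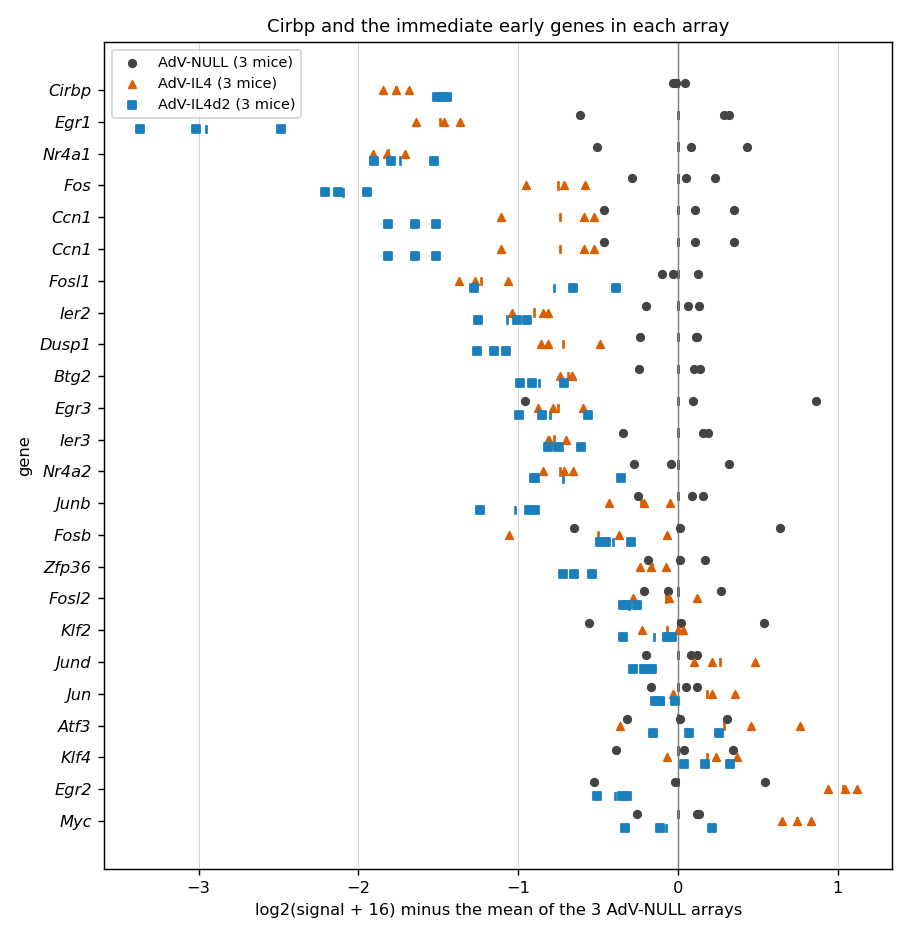
Cirbp and the immediate early genes by array: log2(signal + 16) minus the mean of the 3 AdV-NULL arrays on the x axis, 1 point per mouse and a line at each group mean. Cirbp (-1.62) and Nr4a1 (-1.78) have all 6 cytokine lungs in a tight group left of the controls, while Fos and Egr1 have the AdV-IL4 lungs between the controls and the AdV-IL4d2 lungs.

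Other immediate early genes separated the forms or depended on 1 array. Egr1 read 4826, 9007 and 9221 in controls, 2660, 2860 and 2357 with AdV-IL4, and 1303, 701 and 899 with AdV-IL4d2. It fell by 2.22 (SE 0.42, limma adjusted p = 0.0279), but was 1.47 higher with IL-4 than with IL-4d2 (95% interval 0.93 to 2.01, limma adjusted p = 0.0245). Its pooled call was lost without AdV-IL4d2 mouse 1 (-2.17) or control mouse 1 (-2.53), 2 (-2.08) or 3 (-2.06). Fos showed the same order of groups, at -1.42 ± 0.35 pooled without a call (limma adjusted p = 0.0873) and 1.35 higher with IL-4 than with IL-4d2 (limma adjusted p = 0.00181). Dusp1, a phosphatase of MAP kinases, fell by 0.94 (SE 0.15) and lost its call without control mouse 2 (-0.88) or 3 (-0.88). Ier3 fell by 0.75 (SE 0.11) and lost its call without control mouse 3 (-0.67). Nr4a2 fell by 0.73 (SE 0.14), a call kept only without AdV-IL4d2 mouse 1 or control mouse 1 and ranging from -0.86 to -0.57. Jun (0.04) and Klf4 (0.18) did not differ by the test.

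Of 15 circadian clock genes, 2 fell, against 0.451% of all genes, and none rose, with a median of -0.05. Dbp, a clock output transcription factor, read 7130, 7187 and 8749 in controls and 4011 to 5171 with cytokine, and fell by 0.76 (SE 0.10, limma adjusted p = 0.00236) in every fit without 1 array. Its relative Tef fell by 0.37 (SE 0.08, limma adjusted p = 0.0454), and that call remained only without AdV-IL4 mouse 1. Other Tef probe sets gave -0.22 and 0.17 without calls. Core members were not called, among them Per1 (0.16 ± 0.11) and Arntl (0.11 ± 0.18). The hour at which the lungs were taken was not given in the sources used here.

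Among called genes the largest increases, those of Igkv8-30 and Jchain, were in genes of antibody-secreting cells. Of 11 plasma cell markers 4 rose and none fell by the test (median 0.47). All 6 cytokine lungs lay above the controls for 6 of the 11 and below them for 2. Of 17 B cell markers 4 rose and none fell (median 0.51), and 9 of the 17 had all 6 cytokine lungs above the controls. Over all genes the shares were 0.852% called higher, 4.39% above the controls and 4.83% below. Jchain encodes the chain that joins IgM and IgA into polymers. It read 452, 588 and 372 in controls and 5903, 12486 and 12144 with AdV-IL4. With AdV-IL4d2 it read 9134, 19090 and 7369. It rose by 4.42 ± 0.29, or 21.4-fold (limma adjusted p = 2.15e-05), and the forms differed by -0.17 (95% interval -0.92 to 0.58). Ighm, the constant region of IgM, rose by 2.63 ± 0.31 from control signals of 839, 1614 and 860 (limma adjusted p = 0.00143). Its 11 probe sets ran from 0.05 to 7.39, so its size depends on which probes are read. Other immunoglobulin genes were left out of the ranking that chose the named genes, and 2 are given after their values were seen. Igkv8-30, a kappa variable segment, read 767 to 1082 in controls and 10504 to 35308 with cytokine and rose by 4.51 ± 0.30 (limma adjusted p = 2.15e-05). Igha, the constant region of IgA, rose by 3.61 ± 0.32 (limma adjusted p = 0.000141). Both kept their call in all 9 fits without 1 array, and probes of such related segments may not tell them apart. Mzb1, a chaperone of antibody secretion, read 412 to 455 in controls and 1118 to 2417 with cytokine, and rose by 1.76 ± 0.19.

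**Figure D3:**
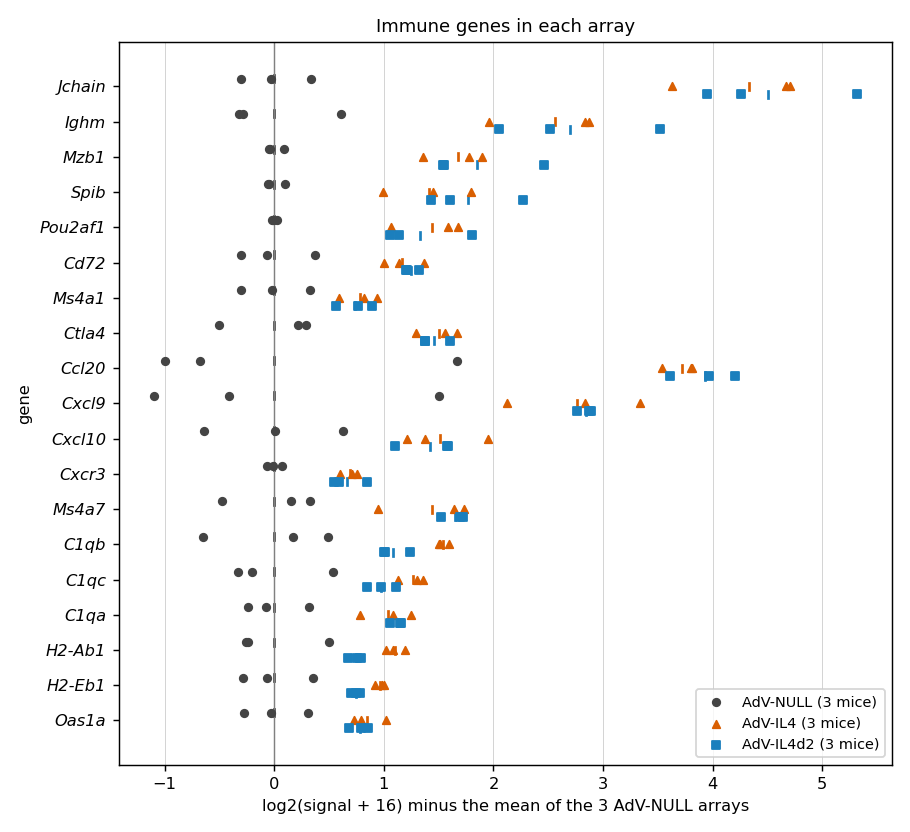
Immune genes by array: log2(signal + 16) minus the mean of the 3 AdV-NULL arrays on the x axis, 1 point per mouse and a line at each group mean. Jchain lies 4.42 above the controls in the pooled arm, the controls of Ccl20 and Cxcl9 are spread widely, and the AdV-IL4 and AdV-IL4d2 points overlap for the B cell and plasma cell genes.

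Transcription factors of the B lineage rose with them. Spib read 342, 306 and 307 in controls and between 648 and 1597 with cytokine, a rise of 1.59 ± 0.21 (limma adjusted p = 0.00281). Pou2af1, a coactivator of immunoglobulin genes, rose by 1.39 ± 0.17 from 3 controls that read 291, 283 and 282. Cd72, a B cell surface receptor, rose by 1.21 ± 0.14 (limma adjusted p = 0.00117). Jchain, Ighm, Mzb1, Spib, Pou2af1 and Cd72 kept their calls in every fit without 1 array and without control mouse 1 and AdV-IL4 mouse 2 together. Ms4a1, which encodes CD20, rose by 0.76 ± 0.13 and lost its call without control mouse 1 (0.75) or 3 (0.61). Irf4 rose by 1.95 ± 0.38 from dim signals (16.9 to 104 in controls), and its call was kept only without control mouse 1, AdV-IL4d2 mouse 1 or AdV-IL4d2 mouse 3, between 1.39 and 2.32. The other Irf4 probe set gave -0.01.

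Among 17 T cell markers 2 rose, against 0.852% of all genes, and none fell (median 0.43). Ctla4, an inhibitory receptor of activated and regulatory T cells, read 47.5, 93.8 and 88.4 in controls and 204 to 269 with cytokine. It rose by 1.48 ± 0.21 (limma adjusted p = 0.00555), in every fit without 1 array. Icos, a costimulatory receptor, rose by 0.88 ± 0.19, a call kept only without AdV-IL4d2 mouse 2 or control mouse 2 (range 0.73 to 1.04). Another Icos probe set rose by 1.23 (limma adjusted p = 0.000804), and a dimmer one gave 1.20 without a call. None of the 12 cytotoxic lymphocyte markers was called, and their median was 0.10.

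Some of the chemokine genes that draw lymphocytes rose. Of 17 measured ligands and receptors 6 rose, 11 did not pass the test, none fell and 9 had all cytokine lungs above the controls (median 0.58). Of all genes, 0.852% rose and 4.39% lay above. Of the 6 calls only that of Ccl20 was kept in all 9 fits without 1 array. Ccl20, the ligand of the receptor CCR6, read 30.3, 218 and 21.1 in controls and 839 to 1342 with cytokine. It rose by 3.82 ± 0.44 (limma adjusted p = 0.00116). Control mouse 2 stood above the other controls, and without it the difference was 4.65. The 3 interferon-inducible ligands of CXCR3 rose: Cxcl9 by 2.80 ± 0.43, Cxcl10 by 1.47 ± 0.24 and Cxcl11 by 1.51 ± 0.32. Cxcl11 was dim, at 16.4 to 56.6 in controls and 83.0 to 143 with cytokine. Its other probe set gave 0.30 without a call (limma adjusted p = 0.859), while that of Cxcl9 rose by 2.11 (limma adjusted p = 0.0104). Cxcl9 read 101, 425 and 56.7 in controls and 659 to 1553 with cytokine. Its call was lost without control mouse 1 (2.60), and without control mouse 2 its difference was 3.55. The call of Cxcl10 was lost without control mouse 1 (1.15) or 3 (1.47), and that of Cxcl11 in all but the fit without control mouse 2 (range 1.32 to 1.90). The receptor gene Cxcr3 rose by 0.67 ± 0.12, from 221 to 244 in controls to 345 to 428 with cytokine, and lost its call without AdV-IL4 mouse 3 (0.67) or control mouse 1 (0.71), 2 (0.64) or 3 (0.67). Cxcl16 rose by 0.58 ± 0.09 and lost its call without control mouse 3 (0.51).

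Of 20 interferon-induced genes 1 rose (median 0.39, with 0.852% of all genes rising). It was Oas1a, which makes the activator of RNase L, and it rose by 0.81 ± 0.12 (limma adjusted p = 0.00675) in every fit without 1 array. Ly6i, a surface protein gene of the Ly6 family, rose by 1.97 ± 0.23 (limma adjusted p = 0.00138), from 216 to 498 in controls to 890 to 1698 with cytokine. Ubd, a ubiquitin-like modifier, rose by 2.05 ± 0.40, with a call kept only without AdV-IL4d2 mouse 2 or 3 or control mouse 2 (range 1.69 to 2.42).

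Myeloid genes that rose were mostly those of monocytes and interstitial macrophages, 5 of 13 measured (median 0.54), against 0.852% of all genes, with none falling. The complement subunits C1qa, C1qb and C1qc assemble the first component of the classical pathway. C1qa read 1185, 1751 and 1329 in controls and 2424 to 3344 with cytokine, a rise of 1.08 ± 0.12 (limma adjusted p = 0.00116). C1qb rose by 1.31 ± 0.21 and C1qc by 1.12 ± 0.17, the latter losing its call without control mouse 1 (1.02) or 3 (0.95). Ms4a7 rose by 1.54 ± 0.20 (limma adjusted p = 0.00247) in every fit without 1 array, though a dim probe set of the gene gave 0.40 without a call. Adgre1, which encodes the macrophage antigen F4/80, rose by 0.54 ± 0.11, a call kept only without AdV-IL4 mouse 1 or AdV-IL4d2 mouse 1 or 3 (range 0.50 to 0.59). The complement list as a whole had 4 of 15 higher, against 0.852% of all genes, and none lower (median 0.14). Beside the C1q genes Cfb rose by 0.81 ± 0.17 with a call kept only without AdV-IL4d2 mouse 2 or 3 (range 0.60 to 0.92).

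Some antigen presentation genes rose. At each gene's brightest probe set, none of these calls was kept in all 9 fits without 1 array. Of 12 MHC class II genes 4 rose, against 0.852% of all genes, and none fell (median 0.57). H2-Ab1, a class II beta chain, read 3560, 6047 and 3600 in controls and 6829 to 9755 with cytokine, and rose by 0.92 ± 0.17 (limma adjusted p = 0.0242). Its call was lost without AdV-IL4 mouse 3 (0.90) or control mouse 1 (0.79) or 3 (0.80). Other H2-Ab1 probe sets rose by 1.24 and 1.20 (limma adjusted p = 0.00383 and 0.0118). H2-Eb1 rose by 0.86 ± 0.13 and lost its call without control mouse 3 (0.82). Ifi30, a thiol reductase of antigen processing, rose by 0.79 ± 0.15, lost without AdV-IL4 mouse 3 (0.76) or control mouse 1 (0.70) or 3 (0.74). Cd74, the invariant chain, rose by 0.88 ± 0.18, a call kept only without AdV-IL4d2 mouse 1 or 3 or control mouse 2 (range 0.72 to 1.11). In class I presentation 3 of 14 rose and none fell (median 0.41): H2-K1 by 0.62 ± 0.12, H2-D1 by 0.57 ± 0.11 and Calr by 0.51 ± 0.10. These were lost in 5, 5 and 7 of the 9 fits, among them those without control mouse 1 (0.53, 0.51 and 0.56) and control mouse 3 (0.57, 0.54 and 0.44). H2-K1 and H2-D1 kept theirs without AdV-IL4 mouse 1, AdV-IL4d2 mouse 1 or 3 or control mouse 2, and Calr without AdV-IL4d2 mouse 1 or 3. H2-K1 and H2-D1 are close paralogues, so their signals may not be separate. Itgae, an integrin of mucosal dendritic cells and T cells, was the 1 of 14 dendritic cell markers that rose, by 1.24 ± 0.22, from 280 to 501 in controls to 701 to 1443 with cytokine. Its call was lost without control mouse 1, the control with the lowest signal (280), or control mouse 3 (1.32). The other Itgae probe set gave 0.62 without a call (limma adjusted p = 0.464).

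Few genes known as readouts of IL-4 signalling were called in the pooled comparison, in which a difference between the forms widens the residual. Of 20 alternatively activated macrophage markers 1 rose, Irf4, while 17 of the 20 had a positive difference and 9 were called higher with IL-4 than with IL-4d2, against 0.868% of genes called either way. The list median was 0.83 for IL-4 and -0.10 for IL-4d2, each against the same 3 controls. Arg1, which encodes arginase, was 3.63 higher with IL-4 than with IL-4d2, and Chil4, a chitinase-like protein gene, 4.60 higher. Of 11 type 2 CC chemokines 1 rose (median 0.72), and 4 were called higher with IL-4. The riser, Ccl8, went from 346 to 1225 in controls to 1412 to 3094 with cytokine (1.79 ± 0.34), a call kept only without AdV-IL4 mouse 1, AdV-IL4d2 mouse 2 or 3, or control mouse 2 (range 1.44 to 2.33). Gpnmb was the 1 of 19 lysosomal macrophage genes that rose, by 1.80 ± 0.38, and its call was kept only without AdV-IL4d2 mouse 1 (range 1.64 to 2.09). Its other probe set gave 0.54 without a call. Of the same 19, 4 had all 6 cytokine lungs above the controls, 17 had a positive difference, and 3 were called without AdV-IL4d2 mouse 1. With the mean of both contrasts in the 3-group fit, which takes the difference between the forms out of the residual, 10 of the 19 lysosomal and 4 of the 20 alternatively activated macrophage genes were called higher. Markers of resident alveolar macrophages, eosinophils, neutrophils, mast cells, club cells, ciliated cells, goblet cells, alveolar type 2 cells, fibroblasts, heart muscle, fat and red blood cells gave no pooled call, and neither did the lists of type 2 cytokines and of arginine metabolism.

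**Figure D4:**
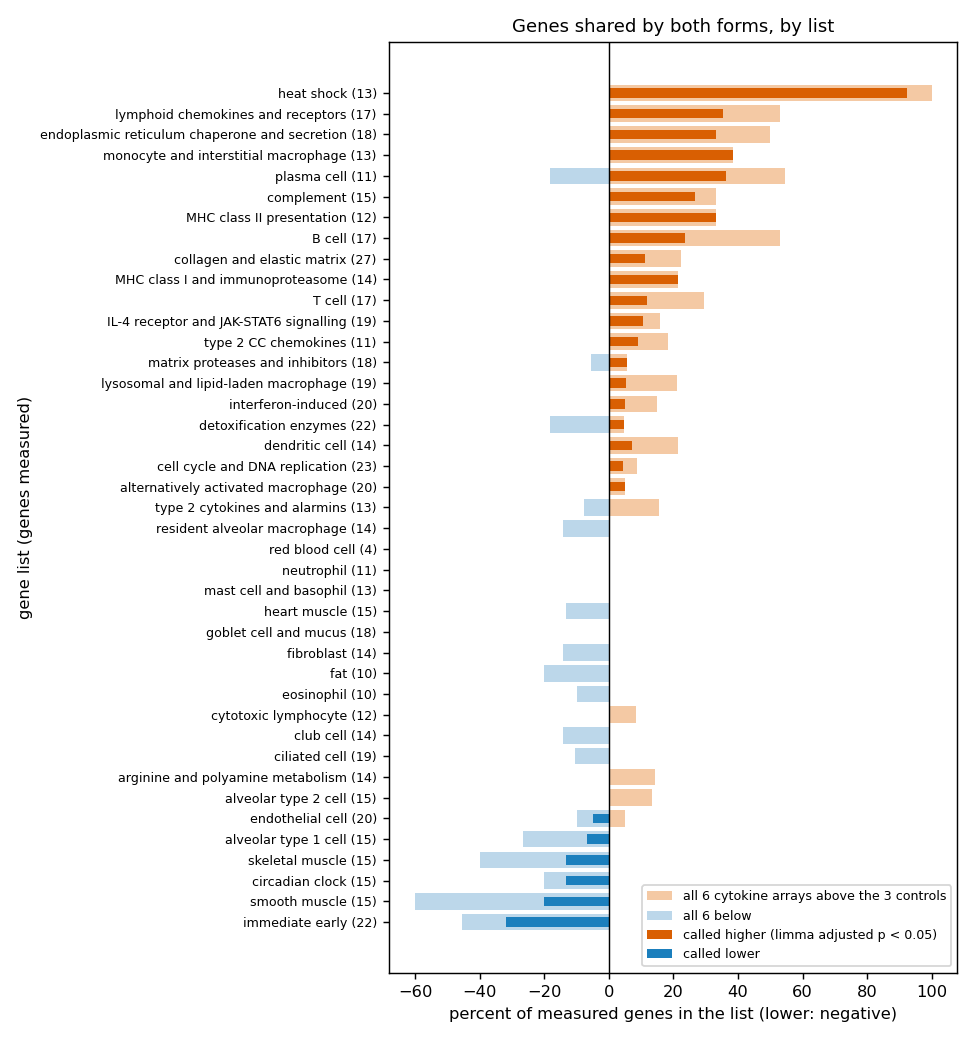
Shared genes by list: the x axis is the percent of a list's measured genes (given in brackets), positive for higher and negative for lower with cytokine. Pale bars count genes with all 6 cytokine arrays on one side of the 3 controls and dark bars count genes called by limma, led by heat shock with 12 of 13 called higher and immediate early with 7 of 22 called lower.

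Of 27 collagen and elastic matrix genes none fell and 3 rose, against 0.852% of all genes (median 0.23): Eln, Lox and Col5a2. Eln, which encodes elastin, read 922, 703 and 1121 in controls, 4403, 4586 and 4547 with AdV-IL4, and 1920, 2297 and 2153 with AdV-IL4d2. It rose by 1.76 ± 0.29 (limma adjusted p = 0.0146), and its call was lost without control mouse 1 (1.78) or 2 (1.59). A dim probe set of the gene gave 0.68 without a call. Ltbp2, a protein of elastic microfibrils that is not in that list and is named for its difference between the forms, rose by 1.34 ± 0.18 (limma adjusted p = 0.00398) in every fit without 1 array. Lox, the enzyme that crosslinks elastin and collagen, read 716, 692 and 677 in controls and 1098 to 1472 with cytokine, a rise of 0.96 ± 0.10 (limma adjusted p = 0.000375) in every such fit. Its dimmer probe sets gave 0.57 and 0.63 without calls. Col5a2, a fibrillar collagen, rose by 0.77 ± 0.14 and lost its call without AdV-IL4 mouse 3 (0.76) or control mouse 1 (0.67), 2 (0.80) or 3 (0.84). The other Col5a2 probe set gave 0.53 without a call. Mmp2, a gelatinase and the 1 of 18 protease genes that rose, did so by 0.69 ± 0.13, lost without AdV-IL4 mouse 3 (0.69), AdV-IL4d2 mouse 2 (0.67) or control mouse 1 (0.53) or 2 (0.68). The other Mmp2 probe set rose by 0.76 (limma adjusted p = 0.00247).

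A few muscle genes fell, and none of their calls was kept in all 9 fits without 1 array. Control mouse 1 stood far above the other lungs on the skeletal muscle genes. Of 15 of these 2 fell, against 0.451% of all genes, and the list median was -2.25. The list's mean log2 signal was 11.95, 8.86 and 7.22 in control mice 1, 2 and 3 and between 6.38 and 7.12 with cytokine. Myh1 read 16776, 1594 and 94.1 in controls and 2.15 to 46.5 with cytokine. All its cytokine signals, and those of Tnnc2 (4.33 to 52.8), lay below the brightest signal of the bacterial trpn control probe sets (55.8), taken here as background. Only a bound on the mean difference can therefore be given. The mean log2 signal of the 3 controls lay 20.0-fold above that level for Myh1 and 15.5-fold for Tnnc2. It is not a bound for each control: control mouse 1 raised that mean, and control mouse 3 read 94.1 and 95.7. The fitted differences, which depend on the offset, were -5.20 for Myh1 and -5.09 for Tnnc2. They were -3.43 and -3.35 without control mouse 1, and -7.06 and -6.75 without control mouse 3. Both were called in no fit without 1 array but that without control mouse 3. Of 15 smooth muscle genes 3 fell and 9 had all cytokine lungs below the controls (median -0.89). Of all genes, 0.451% fell and 4.83% lay below. The smooth muscle list's mean log2 signal was 10.46 to 10.68 in controls and 9.09 to 10.25 with cytokine. Acta2, smooth muscle actin, read 9402, 10719 and 9399 in controls and 3079 to 6774 with cytokine and fell by 0.98 (SE 0.20). Acta2 and Tpm2 (-1.13 ± 0.22) kept their calls only without AdV-IL4 mouse 1 or 2 or AdV-IL4d2 mouse 3, and Tagln (-0.98 ± 0.21) only without AdV-IL4d2 mouse 3. Sh3bgr, a gene of striated muscle, fell by 1.31 (SE 0.27) and kept its call in the same 3 fits as Acta2. Other Sh3bgr probe sets gave 0.07 and -0.40 without calls. The heart muscle list (9.75 to 11.13 in controls, 7.40 to 10.25 with cytokine) and the fat list (from 8.15 up in controls, up to 8.50 with cytokine) overlapped between the arms. How much the tissue taken with each lung contributes to these differences was not tested.

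A few further genes fell. Tuba8, an alpha tubulin, read 496, 426 and 352 in controls and 118 to 212 with cytokine, and fell by 1.24 (SE 0.20, limma adjusted p = 0.0113), a call lost without control mouse 1 (-1.12). The other Tuba8 probe set gave -0.14 without a call. Rgs2, which limits G protein signalling, fell by 0.98 (SE 0.16), lost without control mouse 1 (-0.96) or 3 (range over the 9 fits -1.05 to -0.90), although 2 other Rgs2 probe sets fell by 1.20 and 1.13 (limma adjusted p = 2.15e-05 and 3.9e-05). The difference at the remaining Rgs2 probe set was -0.97 and did not pass (limma adjusted p = 0.188). Nr3c2, the mineralocorticoid receptor, fell by 1.05 (SE 0.21), lost without AdV-IL4 mouse 2 (-0.98) or 3 (-1.01) or control mouse 1 (-0.95), 2 (-1.16) or 3 (-1.04). Pigp, of the GPI anchor pathway, fell by 0.61 (SE 0.11), lost without AdV-IL4 mouse 2 (-0.57) or 3 (-0.56) or any control mouse (-0.64, -0.60 and -0.59). Vegfa, in the alveolar type 1 list, fell by 0.52 (SE 0.11), a call kept only without AdV-IL4 mouse 1 or control mouse 2 (range -0.61 to -0.41). Its other probe set gave -0.50 without a call. Sox17, in the endothelial list, fell by 0.35 (SE 0.07), and that call was lost in all 9 fits (-0.38 to -0.30). The other Sox17 probe set gave -0.21 without a call. On the side of the increases, Cdca8, of the mitotic spindle, rose by 0.81 ± 0.16, kept only without AdV-IL4d2 mouse 3 or control mouse 2. Cyp1a1, a xenobiotic oxidase, rose from 547 to 624 in controls to 789 to 1599 with cytokine (limma adjusted p = 0.0482). Its call was kept only without AdV-IL4d2 mouse 2 or 3, with differences of 0.91 to 1.11 over the 9 fits. Cyp1a1 was the 1 riser among 22 detoxification enzyme genes, and none of the 22 fell by the test. The list as a whole leaned lower, with a median of -0.32 and a positive difference in only 2 genes. All cytokine lungs lay below the controls for 4 of the 22 genes and above them for 1.

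The forms were compared directly on the genes both moved. Over all probe sets 244 differed between IL-4 and IL-4d2 (0.542%), 138 higher with IL-4 and 106 higher with IL-4d2. That balance turned with the scaling: the counts were 83 and 5493 after scaling to the hybridisation controls and 51 and 26571 after scaling to the poly-A controls. Of the 237 genes called in the pooled comparison 5 did so: Eln was 1.09 higher with IL-4 (95% interval 0.78 to 1.39), Ltbp2 0.66 higher (0.45 to 0.87), Egr1 1.47 higher and Rgs2 0.58 higher (0.41 to 0.75), and Pigp was lower, at -0.39 (-0.54 to -0.24). Scaling to the poly-A controls turned the difference of Ltbp2 to -0.41 and that of Rgs2 to -0.49, and left Eln (0.01) and Egr1 (0.40) without a call, while Pigp kept its call at -1.46. With hybridisation scaling Eln was at 0.55 without a call. A gene on which the forms differ gets a wider residual in the pooled fit and is less readily called. For Jchain, Ccl20, Cxcl9, Ighm and Ctla4 the interval of the difference was wide and spanned 0 (for Ccl20 from -1.33 to 0.92), so similar size was not shown. For Dnaja1 it was narrow, from -0.05 to 0.34, and for Ier2 it ran from -0.07 to 0.41.

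**Figure D5:**
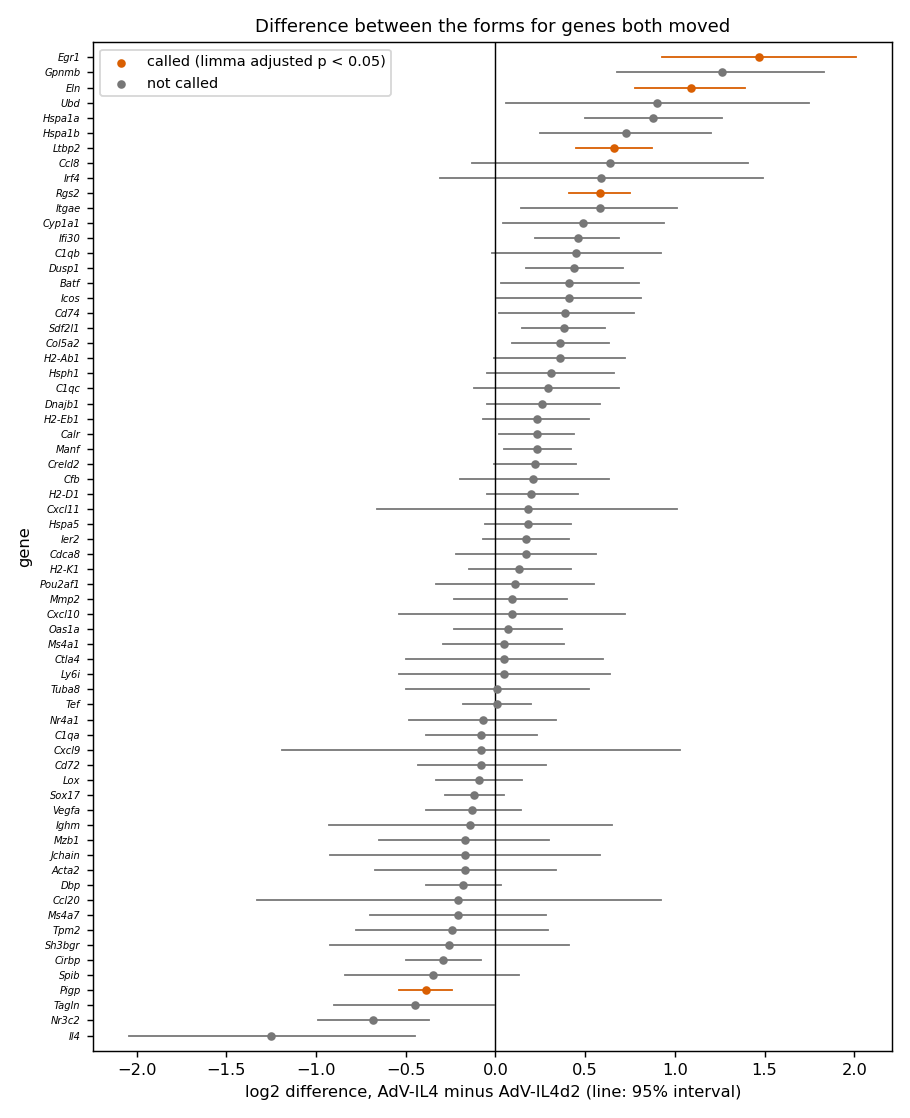
Difference between the forms for 66 named genes called in the pooled comparison (Myh1 and Tnnc2 left off for width): the x axis is the log2 difference AdV-IL4 minus AdV-IL4d2, each point is a gene and each line its unadjusted 95% interval. The 5 genes in colour are called by limma, and the intervals of 24 of the 66 exclude 0.

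Genes next to the threshold show how little separates called from uncalled. Just inside were Polb (limma adjusted p = 0.0497), Plscr4 (0.0499) and Uvssa (0.0499), and just outside were Gata6 (0.0503), Art5 (0.0505) and Hint3 (0.0507).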

How the data were processed

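Lung RNA from 9 mice was hybridised to 1 array each. The intensity values deposited by the authors are linear signals, 45101 per array. Affymetrix Expression Console 2.0, MAS5 and GCOS are listed in the submitters' processing notes, with no step assigned to any of them. The lowest 2% trimmed mean among the arrays was 500.002, and the array medians ran from 155.7 to 170.3. The signals thus appear scaled to a common level, in which case a change common to most genes cannot be seen. After 64 control probe sets were removed, a linear model of log2(signal + 16) was fitted with limma 3.58.1 (R 4.3.3; lmFit, then eBayes with a trend), leaving 7 residual degrees of freedom, or 6 in the 3-group fit used for IL-4 minus IL-4d2. Tests were two-sided. No batch term entered, as the labels name no slide or scan. The script was tested on simulated data.

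Of the probe sets, 34958 have 1 gene symbol, 932 several and 9211 none. A gene is its brightest single-symbol probe set. Named genes were the 12 largest called increases and decreases among one-sided genes above their array's median on at least 3 arrays (immunoglobulin and T cell receptor genes and unnamed loci left out of this ranking), up to 4 called members of each list, the genes with the largest called form difference, and Il4, Il4ra and Stat6; other list members were named to complete their list. The members and the 41 gene lists (605 genes measured) were chosen with earlier results of these data known.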

Additional observations from a re-analysis of the deposited data

Results flagged for a closer look

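Among 70 named genes, 4 had 1 cytokine array far from the other 5, judged by its gap over the range of the 6 (critical value 0.625). Chance flags about 5% of groups. All 4 were in AdV-IL4 mouse 1. Hsph1 read 9744 there against 5416 to 6454 in the other cytokine lungs, Ms4a7 read 619 against 935 to 1083, Lox read 1098 against 1352 to 1472, and Vegfa read 2169 against 2706 to 2964.

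A further 5 genes on which the forms share a side differed between the forms by limma's test. IL-4 minus IL-4d2 was 1.09 for Eln, 0.66 for Ltbp2, 1.47 for Egr1, 0.58 for Rgs2 and -0.39 for Pigp. For Egr1 and Rgs2, which fell with both, the lungs with IL-4d2 lay farther from the controls on the deposited scale; scaling to the poly-A controls turned the difference of Rgs2 to -0.49 and that of Ltbp2 to -0.41.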

How the results depend on the processing

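The main counts were 310 probe sets higher and 142 lower. They became 85 and 19 without the trend in eBayes, 641 and 428 with the mean of both contrasts in the 3-group fit, 60 and 20 after scaling to hybridisation controls, 39 and 54 after scaling to poly-A controls, and 92 and 27 without control mouse 1 and AdV-IL4 mouse 2 together. A filter on dim probe sets gave 453 and 262. With the mouse number as a replicate block they were 208 and 67. The labels do not say that the numbers pair the mice. The correlations of 9 same-numbered pairs ran from -0.071 to 0.117, and 2 of 9 arrays correlated best with their own number in both other groups. Between the 2 cytokine forms, same-numbered pairs gave 0.117, 0.103 and 0.074, and the other pairs -0.09 to -0.014. Whether the numbers mark a shared batch was not tested. Leaving out 1 array gave 122 to 308 higher and 41 to 157 lower. The one-sided counts of 1636 above and 1646 below became 427 and 1005 with hybridisation scaling, 181 and 524 with poly-A scaling, 3124 and 3299 without both arrays, and 1852 to 3344 and 1948 to 3089 without 1 array; fewer arrays make the rule easier to meet. IL-4 minus IL-4d2, 138 and 106 in the main fit, gave 18 and 8 without trend, 217 and 198 with the dim filter, 83 and 5493 with hybridisation scaling, 51 and 26571 with poly-A scaling, 51 and 27 without both arrays, and 34 to 154 and 12 to 96 without 1 array. Of single genes, poly-A scaling turned Il4ra to -0.04, Stat6 to -0.11, and the form difference of Ltbp2 to -0.41 and of Rgs2 to -0.49, and hybridisation scaling turned Stat6 to -0.03. The cause of these shifts was not tested. The other settings (offsets of 1 and 64, quantile normalization) stayed within 1.5 times on these counts. Of 70 named genes, which include the uncalled Il4ra and Stat6, 28 were called and kept their call in all 9 fits without 1 array. With an offset of 1, or with the mean of both contrasts in the 3-group fit, all 70 kept their side of the threshold. Other settings cost many calls. Of the 70, 54 lost their call with poly-A scaling, 43 with hybridisation scaling and 46 without the trend in eBayes. The replicate block cost 19 calls, an offset of 64 cost 11 and quantile normalization 1. Without control mouse 1 and AdV-IL4 mouse 2 together 43 were lost. Arrays have no read depth, so 3 controls set the precision, and dim signals are the least certain.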

Other observations

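The genes in this section were chosen after their values were seen. Further partners of HSP70 and HSP90 rose with both forms and kept their call in all 9 fits without 1 array. Stip1, the adaptor between the chaperones, read 414 to 581 in controls and 1149 to 1702 with cytokine, a rise of 1.32 ± 0.14 (limma adjusted p = 0.000581). Cacybp rose by 1.17 ± 0.09 (limma adjusted p = 3.75e-05) and Ahsa2 by 1.35 ± 0.11 (limma adjusted p = 8.16e-05).

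P4ha1 and P4ha2, the catalytic subunits of collagen prolyl hydroxylase, rose by 0.78 ± 0.10 and 0.45 ± 0.07. Ikzf3, a transcription factor of B cells, rose by 1.03 ± 0.14, and Cdkn1a, the cell cycle inhibitor p21, rose by 0.89 ± 0.12. Tsc22d3, a gene that glucocorticoids induce, read 5364 to 6627 in controls and 8783 to 11171 with cytokine, a rise of 0.73 ± 0.10 (limma adjusted p = 0.00426). These 5 genes also kept their call in all 9 fits.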
